A study of Mus musculus with 2 samples.

Results

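The genes described here are 47 genes of chromosome segregation: kinetochore proteins, the spindle checkpoint, the mitotic kinases and their partners in anaphase and cytokinesis. They were chosen by symbol, as the probes that carry a member's name in the scanner tables, out of 37072 named targets on the array. A gene counted as measured when the scanner software called at least 1 of its probes well above background in both samples, and the brightest such probe stood for it. All 47 passed, among 20781 measured genes in all. The arrays held total RNA of mouse cells given the agent S180 (1 array) and of mouse cells given DMSO, a solvent commonly used as the vehicle (1 array). The labels name no cell type, strain, dose or exposure time and do not say what S180 is. Since each agent has 1 array, the differences below lack replication and carry no p-value.

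The kinetochore is the protein plate that joins a chromosome to spindle microtubules. Its inner layer is built on the histone variant CENP-A, and its outer layer, led by the NDC80 complex, grips the microtubule. Kinetochores that are not attached hold the spindle checkpoint active, which keeps CDC20 from switching on the anaphase-promoting complex (APC/C), the ubiquitin ligase that starts anaphase. Most of these genes are transcribed mainly in G2 and mitosis. Many of their promoters carry a CHR element, bound by the MuvB core of the DREAM complex and of the complexes with B-MYB and FOXM1, together with CCAAT boxes bound by NF-Y.

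The promoters of the 4 genes with the largest differences towards lower signal in S180 (Cdc20, Hmmr, Bub1b and Cenpt) and of the 2 with the largest differences the other way (Bub1 and Cenpm) are shown because the members share promoter elements and most lay on the same side of the median gene. Each is 300 bases from RefSeq on GRCm38.p6, 250 before and 50 after the annotated start, written 5′ to 3′ on the strand of the gene. The windows are chr4:118437294-118437593 (minus strand) for Cdc20, chr11:40733388-40733687 (minus) for Hmmr, chr2:118597961-118598260 (plus) for Bub1b, chr8:105851959-105852258 (minus) for Cenpt, chr2:127831810-127832109 (minus) for Bub1 and chr15:82244287-82244586 (minus) for Cenpm. Capitals mark CHR letters (TTTGAA or TTCGAA) and CCAAT letters on either strand, and a CCAAT box on the opposite strand reads ATTGG.
Cdc20: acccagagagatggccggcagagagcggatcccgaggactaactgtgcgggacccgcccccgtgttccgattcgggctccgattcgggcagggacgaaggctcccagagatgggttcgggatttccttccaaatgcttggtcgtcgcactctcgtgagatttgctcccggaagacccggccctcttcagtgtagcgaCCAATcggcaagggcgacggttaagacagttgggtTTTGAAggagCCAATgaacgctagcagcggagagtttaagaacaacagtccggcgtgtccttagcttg
Hmmr: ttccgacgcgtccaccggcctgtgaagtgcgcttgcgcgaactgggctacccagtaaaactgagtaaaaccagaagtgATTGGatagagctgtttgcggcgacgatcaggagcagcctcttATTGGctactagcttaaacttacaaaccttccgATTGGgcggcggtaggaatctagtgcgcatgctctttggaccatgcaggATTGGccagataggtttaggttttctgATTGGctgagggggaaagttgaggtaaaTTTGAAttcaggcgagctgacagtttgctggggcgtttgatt
Bub1b: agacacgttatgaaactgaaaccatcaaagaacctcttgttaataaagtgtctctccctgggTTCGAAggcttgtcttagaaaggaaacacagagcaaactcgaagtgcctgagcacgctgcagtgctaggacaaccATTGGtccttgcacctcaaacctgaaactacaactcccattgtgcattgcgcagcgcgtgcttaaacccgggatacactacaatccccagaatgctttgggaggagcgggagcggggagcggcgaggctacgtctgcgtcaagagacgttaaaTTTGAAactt
Cenpt: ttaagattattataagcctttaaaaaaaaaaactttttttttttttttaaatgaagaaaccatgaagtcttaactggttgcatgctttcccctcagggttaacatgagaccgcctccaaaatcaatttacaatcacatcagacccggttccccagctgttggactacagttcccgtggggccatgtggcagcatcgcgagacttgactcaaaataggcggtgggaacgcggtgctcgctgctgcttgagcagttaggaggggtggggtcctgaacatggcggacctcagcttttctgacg
Bub1: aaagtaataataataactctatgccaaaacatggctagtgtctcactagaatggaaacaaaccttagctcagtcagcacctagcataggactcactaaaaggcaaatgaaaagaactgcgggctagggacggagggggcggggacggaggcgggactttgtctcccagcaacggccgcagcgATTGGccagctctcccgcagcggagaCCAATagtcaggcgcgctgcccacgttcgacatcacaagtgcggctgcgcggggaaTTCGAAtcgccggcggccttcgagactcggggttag
Cenpm: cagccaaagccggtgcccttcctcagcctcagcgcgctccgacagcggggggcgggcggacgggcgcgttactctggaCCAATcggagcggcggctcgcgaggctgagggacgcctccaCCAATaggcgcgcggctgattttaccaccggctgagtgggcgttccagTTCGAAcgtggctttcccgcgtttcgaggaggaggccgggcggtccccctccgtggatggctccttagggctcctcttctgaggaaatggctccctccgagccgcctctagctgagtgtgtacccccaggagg
Positions were counted from the annotated start, whose first base is 0, to the first base of the match. Cdc20 had a CHR match at -18 between CCAAT matches at -53 and -8. Hmmr had one at 8, downstream of 5 CCAAT matches on the opposite strand. Bub1b had CHR matches at -188 and 40, and Cenpt had neither element in its window.

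Detection was close on the arrays, which lay on the same slide: of 59305 non-control spots, the share well above background was 61.91% for S180 and 60.57% for DMSO, and no spot was saturated. The signals of each array were divided by its 75th percentile over probes, which was 615.5 for S180 and 747.9 for DMSO, and these multiples are called relative signals below. A relative signal can be compared between the arrays for a given probe, but not between probes. The error used for a single difference is the spread of replicate spots. For a pair of single spots, 1 on each array, the SD of the log2 difference was 0.042 over 262 replicated probes in the brightest of 3 equal groups of genes and 0.073 over 6 probes in the middle group. Of the members 36 lay in the brightest group, 11 in the middle one and 0 in the dim one. This SD leaves out variation between samples, extractions and labellings, which 1 array per agent cannot show. Since no cell type is named, marker lists were read as well. All 7 melanocyte markers were measured, with differences from -0.12 to 0.26 (log2), whereas 0 of 4 hepatocyte markers were. The fibroblast markers, 4 of 6 measured, ran from -0.83 to -0.02, with a summed unscaled signal of 1520 in S180 and 2557 in DMSO. The epithelial markers, 3 of 6 measured, ran from -0.89 to -0.08, with a sum of 58.0 in S180 and 99.3 in DMSO. These lists lay on the same side of 0 as most of the 47 genes, as did the measured erythroid and endothelial markers. Their part in the differences was not tested. The summed unscaled signal was far larger for the melanocyte markers, at 800049.3 in S180 and 868102.5 in DMSO. It was 9394 in S180 and 9868 in DMSO for the neuronal markers, and 5371 in S180 and 5558 in DMSO for the macrophage markers. Of the other lists, 4 of 5 macrophage markers (-0.84 to 0.26), 3 of 5 T cell markers (0.06 to 0.22), 3 of 4 B cell markers (0.26 to 0.58), 3 of 4 neuronal markers (-0.13 to 0.26), 2 of 4 erythroid markers (-0.33 to -0.20), 1 of 4 endothelial markers (-0.25) and 1 of 4 muscle markers (0.08) were measured.

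Most of the 47 genes had slightly lower relative signals in S180 than in DMSO. Of them 40 were below the median gene, against 50% of all measured genes, and the same number lay below 0, against 49.1%. At a 1.2-fold threshold 13 members (27.7%) were lower in S180, where 11.8% of all measured genes were, and 0 were higher, where 15.1% of all measured genes were. The lower count was 42 without scaling between the arrays, where 52.6% of all measured genes were lower, and 45 with scaling on spike-in transcripts, where 65.3% were. Among the brighter 50% of measured genes, which held 46 of the 47 and all 13 of the lower members, 6.28% were 1.2-fold lower and 8.90% were 1.2-fold higher. The median difference (S180 minus DMSO) of the 47 was -0.13 (log2), or 1.09-fold lower, and that of all measured genes was 0.00. The members ranged from -0.41 to 0.14, with quartiles of -0.28 and -0.06, whereas the quartiles of all measured genes were -0.14 and 0.16. On the 75th-percentile scale, the one on which higher thresholds were run, 2 members were 1.3-fold lower (5.71% of all measured genes were) and 0 were 1.5-fold lower (1.71%), while 0 were 1.3-fold or 1.5-fold higher (8.69% and 3.08% of all measured genes were). In bulk RNA, fewer cells in G2 or mitosis and less of these RNAs in each such cell cannot be told apart.

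**Figure D1:**
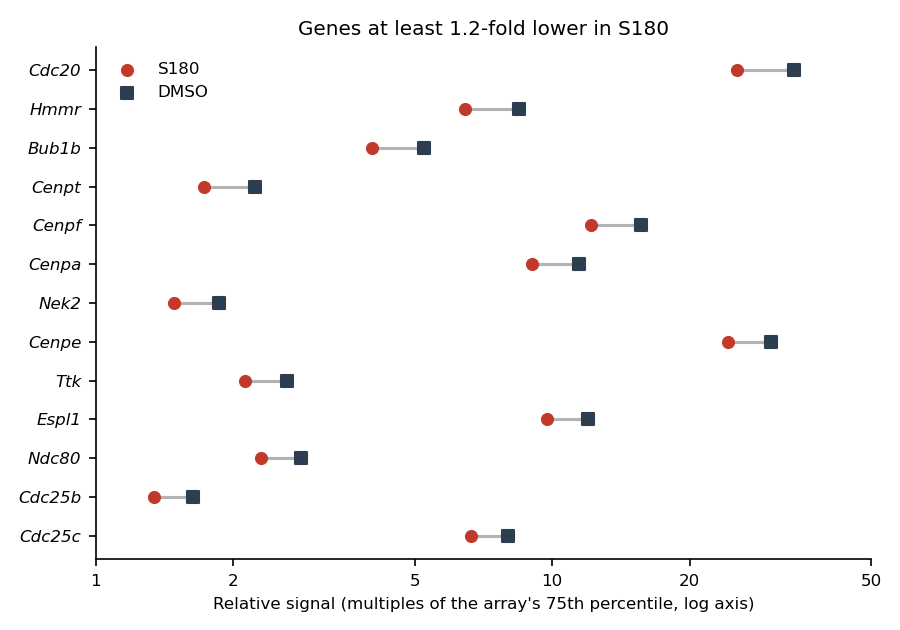
Relative signal (multiples of the 75th percentile of the array, log axis) of the 13 genes that were at least 1.2-fold lower in S180, with the S180 array as circles and the DMSO array as squares, 1 array each. In every row the S180 circle lies left of the DMSO square, from Cdc20 at 25.4 against 33.8 down to Cdc25c at 6.63 against 8.02.

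The inner kinetochore is a set of centromere proteins that assemble on CENP-A nucleosomes, and 10 of its 11 members here lay below the median gene. Cenpt encodes the protein that reaches from centromeric DNA to the NDC80 complex, and its relative signal was 1.73 in S180 and 2.24 in DMSO (log2 -0.37; probe at chr8:108369009-108369068 on mm9, the build of all probe positions here). Cenpa, the centromeric histone H3 variant itself, had 9.05 in S180 and 11.4 in DMSO (log2 -0.34; 1.26-fold lower). Its probe spans chr5:30974916-30975386. These were the 2 members of the inner kinetochore past 1.2-fold. The other 8 on the same side, Cenpi, Cenph, Cenpn, Cenpq, Cenpk, Cenpo, Cenpl and Cenpp, which encode further subunits of the constitutive centromere network, ran from -0.22 to -0.06. Cenpm, a subunit of the same network, had 0.88 in S180 and 0.80 in DMSO (log2 0.13), and turned to -0.15 without scaling and to -0.22 on a spike-in scale.

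In the outer kinetochore 3 of 6 genes were 1.2-fold lower in S180. Cenpf encodes a large protein of the kinetochore's outer corona, and it had 12.2 in S180 and 15.7 in DMSO (log2 -0.36; 1.29-fold lower; chr1:191465934-191465993), with -0.24 from its other probe. Cenpe, a kinesin motor that carries chromosomes to the spindle equator, had 24.3 in S180 and 30.2 in DMSO (log2 -0.31; chr3:134936387-134936446). Ndc80, the microtubule-binding subunit for which the complex is named, had 2.30 in S180 and 2.82 in DMSO (log2 -0.29). The other subunits of that complex lay nearer to the median gene: Nuf2 at -0.19, Spc25 at -0.07 and Spc24 at 0.03. Spc24 was at -0.25 without scaling and at -0.33 on the spike-in scale, and the dimmer probe of Spc25 gave -0.23.

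The spindle checkpoint genes divided. Bub1b encodes BUBR1, a part of the inhibitor that holds CDC20, and had 4.03 in S180 and 5.24 in DMSO (log2 -0.38; chr2:118466830-118466889). Ttk encodes MPS1, the kinase that starts checkpoint signalling, and had 2.13 in S180 and 2.62 in DMSO (log2 -0.30; chr9:83765807-83765866). All 4 of its measured probes were below 0, from -0.46 to -0.17. Mad2l1, which encodes the checkpoint protein MAD2, was at -0.09. Bub1, a checkpoint kinase at the kinetochore, had 9.50 in S180 and 8.65 in DMSO (log2 0.14), the largest difference towards higher signal in S180 among the 47. Bub3, the partner of BUB1 and BUBR1, had 66.7 in S180 and 63.5 in DMSO (log2 0.07). Without scaling Bub1 was at -0.15 and Bub3 at -0.21, on the spike-in scale Bub1 was at -0.22 and Bub3 at -0.28, and with quantile normalization and in the authors' deposited table Bub3 was at -0.03.

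None of the 4 genes of the chromosomal passenger complex, which corrects wrong attachments and acts again in cytokinesis, was 1.2-fold apart on its brightest probe. Aurkb, its kinase, was at -0.11, Cdca8, which encodes the targeting subunit borealin, at -0.06, Incenp, the gene of the scaffold that binds and activates the kinase, at -0.04 and Birc5, which encodes survivin, at -0.04. Birc5 had 101 in S180 and 104 in DMSO on that probe, but 7.97 in S180 and 9.55 in DMSO on its other probe (log2 -0.26). Incenp gave -0.23 on its other probe.

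Among the mitotic kinases and CDC25 phosphatases 3 of 5 were 1.2-fold lower in S180. Nek2, a kinase that lets centrosomes separate, had 1.49 in S180 and 1.86 in DMSO (log2 -0.32; chr1:193656343-193656402). Cdc25b and Cdc25c, phosphatases that activate CDK1 at entry into mitosis, lay just past the threshold. Cdc25b had 1.34 in S180 and 1.63 in DMSO (log2 -0.28), and Cdc25c had 6.63 in S180 and 8.02 in DMSO (log2 -0.27). Plk1, a kinase that acts from entry into mitosis to cytokinesis, had 37.9 in S180 and 43.8 in DMSO (log2 -0.21), which falls short of it. Aurka, the kinase of spindle poles, was at -0.09.

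Cdc20, the activator of the APC/C on which the checkpoint acts, had the largest difference of the 47. It had 25.4 in S180 and 33.8 in DMSO (log2 -0.41; 1.33-fold lower; chr4:118105534-118105593), and 10.68 in S180 and 14.8 in DMSO on its other probe (log2 -0.47; chr4:118107356-118107415). Both probes gave a difference several times the SD of replicate spots, which leaves out variation between samples. Over all genes of the brightest signal group the SD of the difference between the arrays was 0.21. Without scaling Cdc20 was at -0.69 and on the spike-in scale at -0.77, and over the 13 lower members the values ran from -0.69 to -0.56 without scaling and from -0.77 to -0.63 on the spike-in scale. Fzr1, which encodes CDH1, the activator that takes over from CDC20 late in mitosis, was at 0.02, but at -0.27 without scaling, -0.34 on the spike-in scale and -0.01 with normexp background correction. Espl1, the gene of separase, which cuts cohesin at anaphase, had 9.75 in S180 and 12.0 in DMSO (log2 -0.30; chr15:102154674-102154733). Its inhibitor securin, encoded by Pttg1, was at 0.01, but at -0.02 with quantile normalization, in the authors' deposited table and with normexp, at -0.27 without scaling and at -0.34 on the spike-in scale. Sgol1, which encodes shugoshin, the protector of centromeric cohesin, was at -0.25, just short of the threshold, and Ube2c, an E2 enzyme of the APC/C, at -0.22.

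The spindle and cytokinesis genes held 1 gene past 1.2-fold. Hmmr, which encodes a microtubule-binding protein of the spindle, had 6.45 in S180 and 8.45 in DMSO (log2 -0.39; 1.31-fold lower; chr11:40515324-40515383), while its dimmer probes gave -0.17 and -0.07. Cenpj, which encodes a centriole protein despite its centromere name, was at -0.25, also just short of the threshold. Tpx2, an activator of Aurora A, was at -0.09 and Nusap1, which bundles spindle microtubules, at -0.08. Of the cytokinesis genes Ect2, an activator of RhoA, was at -0.13, Anln, the actin-binding protein anillin, at -0.12, Racgap1, a part of centralspindlin, at -0.07 and Prc1, which crosslinks the midzone, at 0.03. Prc1 was at -0.02 with quantile normalization and in the authors' deposited table, -0.04 with normexp, -0.25 without scaling and -0.33 on the spike-in scale. Mki67, the proliferation marker Ki-67, had 43.9 in S180 and 47.2 in DMSO (log2 -0.10), and Top2a, the topoisomerase that untangles sister chromatids, 40.0 in S180 and 40.5 in DMSO (log2 -0.02). The probes of Top2a ran from -0.08 to 0.23, and with the mean over its measured probes it was at 0.06.

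**Figure D2:**
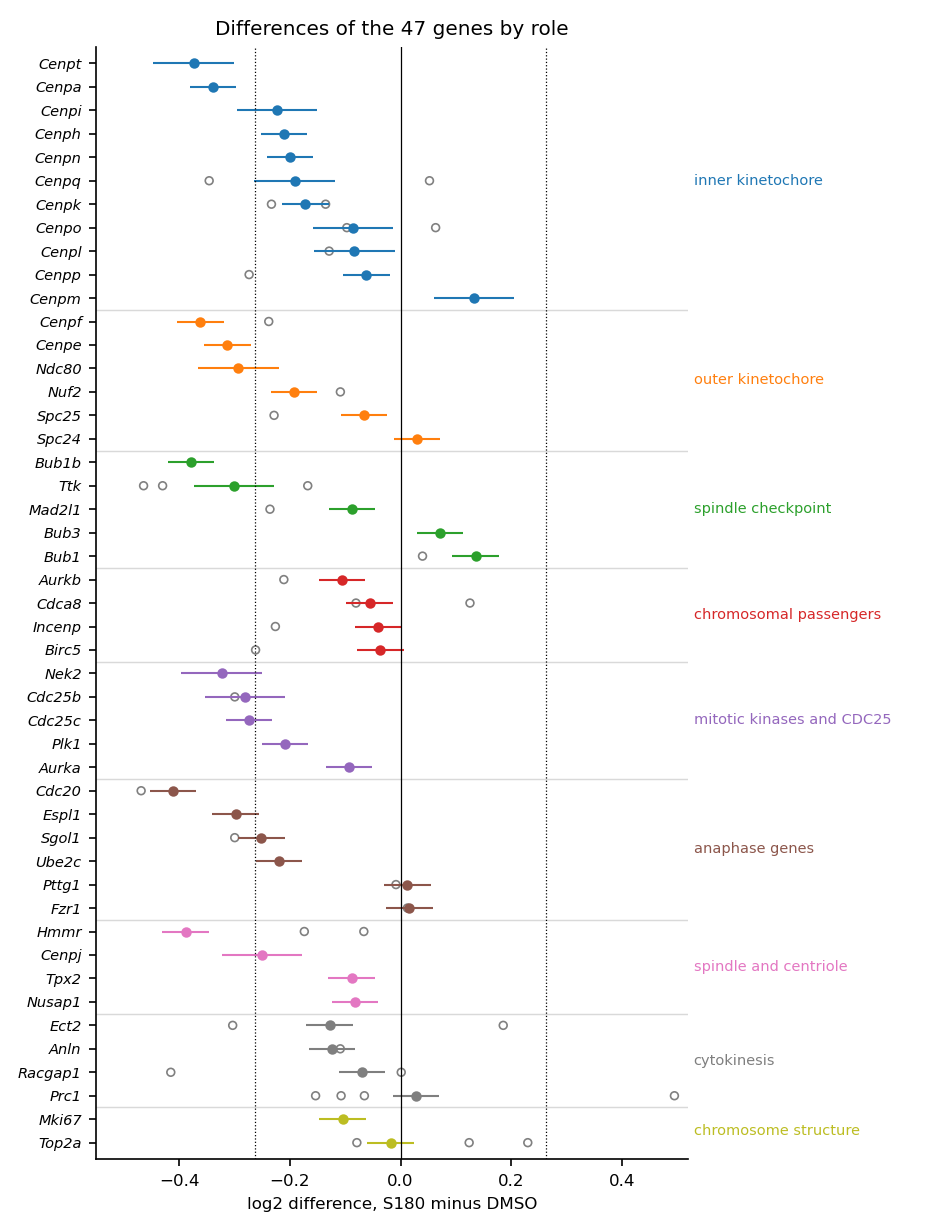
Log2 difference (S180 minus DMSO) of each of the 47 genes, grouped by role. Filled points are the brightest measured probe with the SD of a difference between single spots, open circles are other measured probes of the gene, and dotted lines mark 1.2-fold. The filled points run from -0.41 for Cdc20 to 0.14 for Bub1, and 40 of 47 lie left of 0.

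Different probes of a gene did not always give the same difference. The members had 89 probes, of which 87 were measured. Of these 70 were below 0, against 49.4% of all 32679 measured probes of named targets. At 1.2-fold 22 were lower in S180, against 11.9% of those probes, and 1 was higher, against 15.5%. In 16 of the 26 members with more than 1 measured probe every measured probe was below 0, against 30.9% of the 7387 such genes on the array, and in 2 every one was above 0, against 26.9%. In 8 members the probes lay on both sides of 0. Of those, 4 had a probe past 1.2-fold: Cenpq (-0.35 to 0.05), Ect2 (-0.30 to 0.19), Racgap1 (-0.42 to 0.00) and Prc1 (-0.15 to 0.50). The highest of the Prc1 probes had a relative signal of 0.099 in S180 and 0.070 in DMSO. The second Racgap1 probe, at -0.42, had 1.198 in S180 and 1.598 in DMSO. Every one of the 13 lower members was below 0 on all its measured probes, and 8 of them had a single measured probe. For those 8 this was fixed by the choice of genes. In the other 5 the second probe was also 1.2-fold lower for Cdc20, Ttk and Cdc25b, but not for Cenpf or Hmmr. These counts were not taken over all genes 1.2-fold lower on the array, so they cannot be read as particular to the members.

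The members in the middle group of signal had larger differences than those in the bright group. Of 11 members in the middle group 5 (45.5%) were 1.2-fold lower, with a median of -0.25, where 13.4% of all genes of that group were. Of 36 in the bright group 8 (22.2%) were 1.2-fold lower, with a median of -0.11, where 3.78% of that group were. All genes of the middle group were also lower and more spread (median -0.03, SD 0.27) than those of the bright group (median 0.01, SD 0.21). Whether the level of signal takes part in the size of these differences was not tested.

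The CHR was found in the promoters of 26 of the 42 members that have a window in the RefSeq table (61.9%), against 21.7% of 27025 genes. The 5 others, Aurkb, Cdc25c, Incenp, Spc24 and Tpx2, were matched to none. The letters searched on both strands were TTTGAA and TTCGAA for the CHR, CCAAT for the NF-Y box, TTCGCGC and TTGGCGC for E2F and GGGCGG for the GC box, and matches of different motifs may overlap. A CCAAT box was in 31 member promoters (73.8% against 41.1% of all genes), and both elements were in 24 (57.1% against 8.61%). A CHR match within 60 bases of the start, a window set after the positions had been seen, was in 23 (54.8% against 6.79%). The GC box was in 34 (81.0% against 38.2%, or 63.1% of measured genes) and an E2F match in 4 (9.52% against 4.47%, or 7.48% of measured genes).

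The CHR occurred among both the lower members and the others. It was in 9 of the 12 members with a window that were 1.2-fold lower and in 17 of the other 30. The median difference was -0.16 for the 26 members with it and -0.18 for the 16 without it. For a match within 60 bases of the start the medians were -0.21 (23 members) and -0.10 (19 members). Across all measured genes those medians were both -0.02, over 550 genes with such a match and 10728 without. The split by CCAAT box was like it, at -0.20 for the 31 members with a box and -0.09 for the 11 without. Across all measured genes both of these medians were -0.02 too. For the GC box they were -0.18 (34 members) and -0.14 (8 members), and for an E2F match -0.12 (4 members) and -0.19 (38 members). Bub1, with a CHR match at 14 and 2 CCAAT boxes, and Cenpm, with a CHR match at -83 and 2 CCAAT boxes, were the members furthest above 0, and Cenpt, with neither, was among the lowest. A match is a run of letters and not a measured site.

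**Figure D3:**
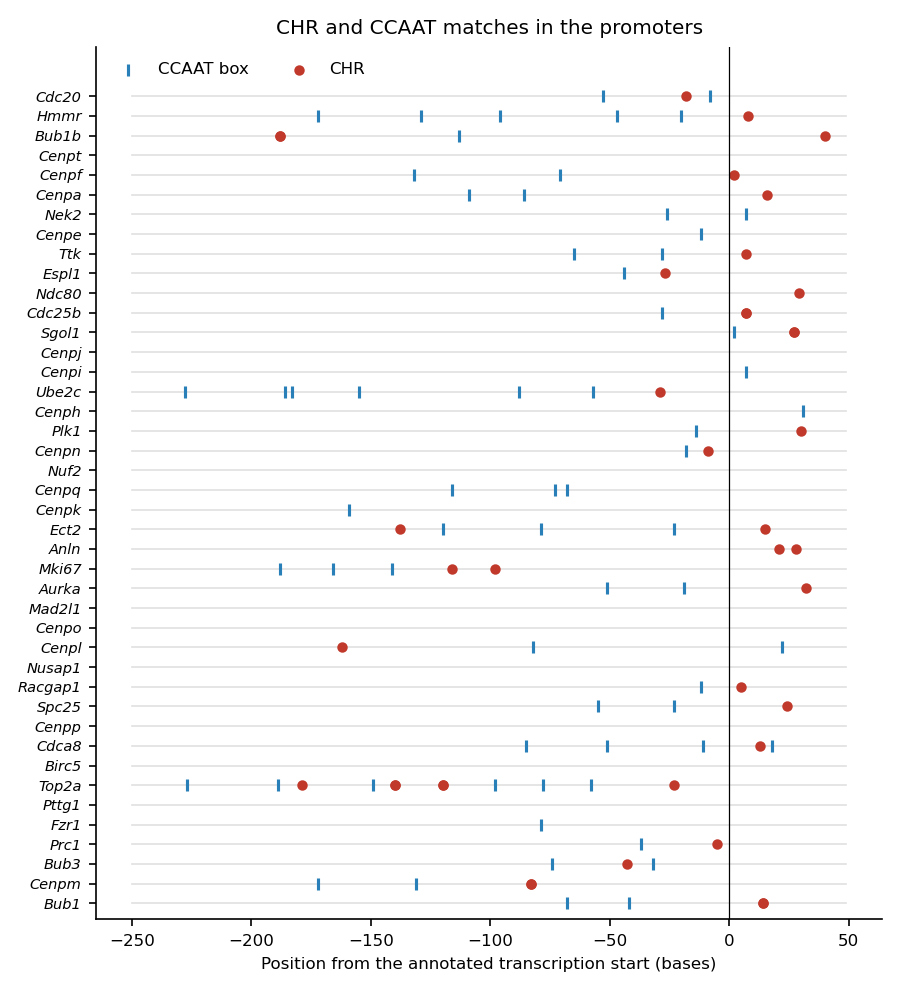
Positions of CHR matches (circles) and CCAAT matches (bars) from 250 bases before to 50 after the annotated start in the 42 member promoters, ordered from the most negative log2 difference (Cdc20, top) to the most positive (Bub1, bottom). For genes with several windows the one with the lowest coordinate is drawn. CHR matches gather near the start, and promoters with and without them occur along the whole order.

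Other genes of the same machinery were read from lists chosen as pathways. Of 30 other kinetochore and checkpoint genes 8 (26.7%) were 1.2-fold lower in S180 and 1 was higher, with a median of -0.21 and 28 below the median gene. Spdl1, which brings dynein to the kinetochore, had 0.25 in S180 and 0.38 in DMSO (log2 -0.58; -0.415 with normexp). That was its only measured probe, and it lay outside the brighter 50% of measured genes. Cenpb, a protein that binds centromeric repeats, had 2.59 in S180 and 3.41 in DMSO (log2 -0.40). Hjurp, the chaperone that loads CENP-A, was the exception, with 2.34 in S180 and 1.88 in DMSO (log2 0.32; -0.04 on the spike-in scale). All 12 mitotic kinesins lay below the median gene and 5 were 1.2-fold lower (median -0.24). Among these, Kif23, a motor of centralspindlin, was at -0.55, with probes from -0.58 to 0.27, and Kif20b at -0.45. Of 10 genes of mitotic cyclins, CDK1 and its regulators 2 were 1.2-fold lower, Cdk1 at -0.32 and its subunit gene Cks2 at -0.31, with a median of -0.07 and 3 of the 10 above the median gene.

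Other lists covered related machinery of the cell cycle. None of 16 genes of the APC/C core and its partners was 1.2-fold apart on its brightest probe (median -0.01). Nor was any of 13 condensin and cohesin genes (median -0.10). Of all measured genes 11.8% were lower and 15.1% higher. However, 14 of the 16 APC/C genes and all 13 condensin and cohesin genes lay in the bright group of signal. In that group 3.78% of all genes were lower and 8.76% higher, which is the closer comparison for these lists. Over all measured probes the APC/C genes ran from -0.83 (Anapc7) to 0.59 (Anapc1). The condensin and cohesin genes ran from -0.28 (Smc4) to 0.26 (Stag1). Of 27 DNA replication genes Prim1, a primase subunit, was lower (log2 -0.38) and Mcm7, of the replicative helicase, was higher (log2 0.27; -0.08 on the spike-in scale), with a median of -0.03. Of 22 genes of the MuvB, E2F, FOXM1 and NF-Y factors 1 was lower, Rbl1 (p107) at -0.36, and 1 was higher, E2f2 at 0.26 (-0.09 on the spike-in scale), with a median of -0.01. Foxm1 was at 0.02 on its brightest probe and at -0.24 on its other probe. Whether these lists differ from the 47 genes cannot be tested with 1 array per agent.

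**Figure D4:**
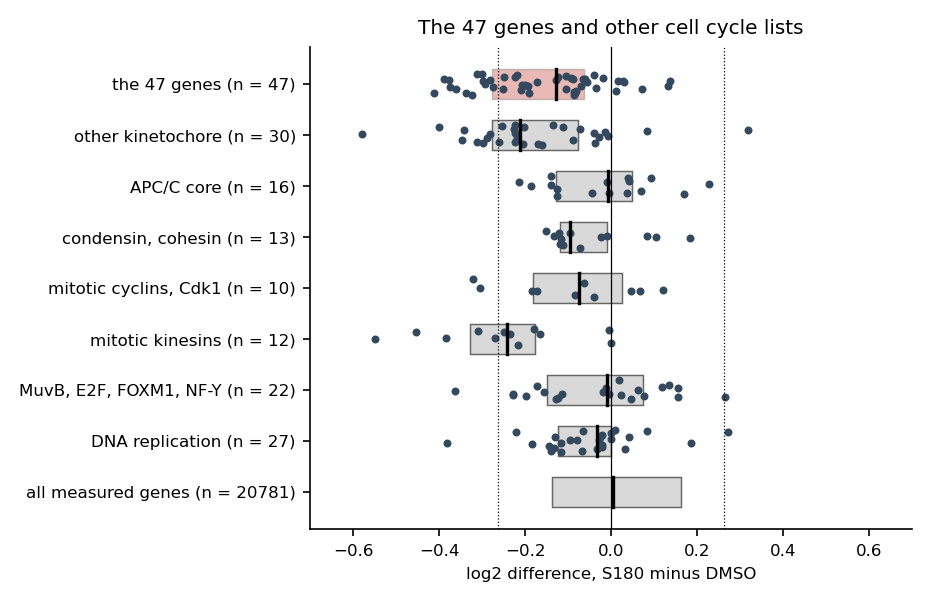
Log2 differences (S180 minus DMSO) of the 47 genes, of 7 other cell cycle lists and of all 20781 measured genes. Points are genes, boxes run between the quartiles with the median as a bar, and dotted lines mark 1.2-fold. The medians are -0.13 for the 47 genes, -0.21 for other kinetochore genes and -0.24 for mitotic kinesins, against 0.00 for all measured genes.

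Between 40 and 44 members lay below the median gene under every processing tried, whereas their position relative to 0 moved with the scaling. Without scaling the median gene lay at -0.28 and on the scale of 8 spike-in transcripts at -0.35, and all 47 members were then below 0. Their median stayed 0.13 below that of all measured genes under either, since a single factor per array cannot change that distance. It was 0.15 below with quantile normalization and 0.20 below with normexp background correction. Of the 13 lower members 12 or 13 remained 1.2-fold lower under each of the 8 alternatives. Leaving out scaling and using the spike-in scale could not reduce that count, because both moved every gene further down. The restriction to brighter genes could not either, because it kept all 13 with the same values. Scaling on the median of measured genes moved every gene by the same small amount, and the deposited table nearly repeated quantile normalization. Counted against the median gene of the same setting, 9 of the 13 remained with quantile normalization and in the authors' deposited table. It was 12 with the mean over measured probes and 13 with normexp.

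**Figure D5:**
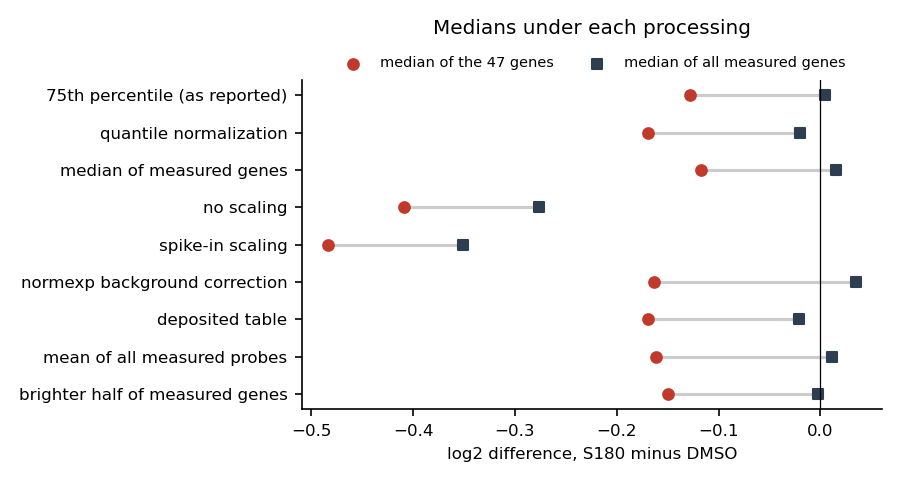
Median log2 difference (S180 minus DMSO) of the 47 genes (circles) and of all measured genes (squares) under each processing. In every row the circle lies left of the square, by 0.13 to 0.20, while both shift to the left without scaling and with spike-in scaling.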

How the data were processed

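Total RNA was labelled with Cy3 and hybridised to 1-colour Agilent mouse arrays, 1 for S180 and 1 for DMSO. Groups follow the agent named in the labels. The deposited scanner files give the intensity of each spot, linear, from Agilent Feature Extraction 10.7.1.1. Per the file headers and columns, the processed intensity had a fitted spatial background subtracted and was detrended within each array, with surrogates for dim spots and no scaling between arrays. A deposited series table gives log2 values. No source used here says how it was made, but 99.89% of 56745 probes lay within 0.1 of quantile-normalised log2 signals in each column, each column followed its own array (Pearson's r across probes 1.00 against 0.99 for the other array), and each had a median of 5.27. Scale and direction are thereby settled.

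Control and outlier spots were left out (120 and 195 non-control spots on the S180 and DMSO arrays), spots of a probe were averaged as log2, and the 75th percentile over 56602 probes was subtracted. A gene is its brightest probe well above background on both arrays, by the name in the scanner tables. With 1 array per group no test was run, and the counts past 1.2-fold are descriptions only. Replicate spots came from 278 of 300 probes with 10 spots, measured on both arrays with 8 or more kept. Probe positions are on mm9, and no exon or UTR annotation was used. Promoters are matched by symbol or a unique synonym. The procedure was run on simulated data, but every planted difference was larger than that of any member. That run therefore does not show how well differences near 1.2-fold are recovered. All members could be named, with values per array for those past 1.2-fold or with discordant probes, and in each other list the 2 largest past 1.2-fold in each direction. Others named, with the window of 60 bases, were chosen after values were seen. The members, lists and alternatives were chosen with earlier results of these data known. Python 3.11.15, pandas 2.3.3, R 4.3.3 and limma 3.58.1 were used.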

Additional observations from a re-analysis of the deposited data

How the results depend on the processing

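Each of 8 alternatives (quantile normalization, the median of measured genes, no scaling, spike-in scaling, normexp with offset 50, the series table as deposited, a mean over the gene's measured probes and the brighter 50% of genes) was run on the counts, the medians and every member, with fold thresholds of 1.3 and 1.5 for the counts. The number of members 1.2-fold lower in S180 was 42 without scaling (52.6% of all measured genes) and 45 with spike-in scaling (65.3%), and 12 or 13 under the other 6. The median of the members was -0.41 without scaling and -0.48 with spike-in scaling. At 1.3-fold 2 members were lower and at 1.5-fold 0. None was 1.2-fold higher under any alternative. The share of all measured genes that were 1.2-fold lower ranged from 5.86% (normexp) to 65.3%, and of those higher from 2.68% to 15.9%. Counted against the median gene of the same setting, 9 members were 1.2-fold lower with quantile normalization and 17 with normexp, against 13 as reported. None of the 13 lower members changed sign under any alternative. Without scaling, with spike-in scaling and among the brighter genes, no such change was possible. No paired analysis was possible because there was 1 array per agent. Without replicates the precision is bounded by 1 sample per agent, and dim probes, such as the highest Prc1 probe, limit the comparison between probes.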

Other observations

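The genes that place CENP-A at centromeres did not go together, as seen after their values were known. Hjurp, the chaperone gene, had a relative signal of 2.34 in S180 and 1.88 in DMSO, and its 2 measured probes gave log2 differences of 0.32 and 0.24. On the other side of the median gene were Cenpa (-0.34), Oip5 (1.44 in S180 and 1.83 in DMSO, log2 -0.34) and Mis18a (2.79 in S180 and 3.26 in DMSO, log2 -0.22). Oip5 and Mis18a encode proteins that prepare centromeres for loading. Hjurp was at -0.04 on the spike-in scale and at 0.04 without scaling.

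The SKA complex, which helps NDC80 to follow shrinking microtubules, had 3 genes with like values, also noticed afterwards: Ska1 at -0.28, Ska3 at -0.26 and Ska2 at -0.26 (log2). Ska1 had a relative signal of 8.10 in S180 and 9.85 in DMSO.

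In 20 of the 26 members with more than 1 measured probe the second brightest probe gave a more negative difference than the brightest, and in 6 a less negative one. The same count was not taken over all measured genes, so it cannot be read as particular to these members. Birc5 gave -0.04 and -0.26, Incenp -0.04 and -0.23, Spc25 -0.07 and -0.23, and Mad2l1 -0.09 and -0.24, each with the brightest probe first. Among the 6 were Cenpf (-0.36 and -0.24), Nuf2 (-0.19 and -0.11) and Hmmr, with -0.39 on the brightest probe and -0.17 and -0.07 on the others. What sets these probes apart was not tested.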
